A study of Mus musculus with 2 samples.

Results

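Methylation of CpG cytosines in the bodies of pseudogenes was examined in mouse C3H myotubes, the multinucleate muscle cells that form when myoblasts of this line differentiate in culture. Cells were transfected with a control small interfering RNA (siCon) or with an siRNA that targets H19, a long non-coding RNA (siH19), and genomic DNA was taken 48 h later and read by reduced representation bisulfite sequencing. There was 1 library per group, so no difference between siH19 and siCon has a replicate check, and every test on reads compares 2 libraries, not 2 conditions. H19 RNA, and markers of the cell type, cannot be checked in DNA methylation files.

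Members were all autosomal genes of the GENCODE types processed pseudogene or unprocessed pseudogene, transcribed forms included, that lie over 2 kb from every protein-coding transcription start on GRCm38. There were 10845 such genes among 51229 autosomal genes, of which 8936 were processed and 1909 unprocessed. A cytosine was counted where both libraries had at least 5 reads and where it lay outside the sites of the digesting enzymes, CCGG for MspI and TCGA for TaqI. This left 15945 cytosines inside member bodies, of 1795680 on the autosomes, with a median depth of 20 reads in siCon and 19 in siH19. The level of a cytosine is the percentage of its reads that were methylated. The cells are of C3H origin and the reference is of another strain, so that a C-to-T difference between strains would be read as an unmethylated cytosine, and its part in the levels was not tested.

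A processed pseudogene arises when the mRNA of a gene is copied back into DNA and inserted at another place in the genome, so it carries the exons of its parent without the introns and usually without the parent's promoter. An unprocessed pseudogene arises from duplication of a stretch of genomic DNA and keeps the exon and intron structure. Methylated cytosine in a CpG readily deaminates to thymine, so that CpG dinucleotides which are methylated in the germ line are lost over time as TpG or CpA. In most mammalian genes the CpG-rich sequence at the start of transcription is free of methylation, while gene bodies and repeats are methylated. The comparisons below ask how methylated the copies are, whether the types differ, how each copy compares with its parent base for base, and whether the levels differed between the siCon and siH19 libraries.

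The sequences that carry these comparisons are shown first. Each is a 120-base window of GRCm38 printed in the direction of its gene, with every CpG in capitals, and each parent window lies inside 1 coding exon of the GENCODE vM21 annotation. The first pair holds the most aligned CpGs of any copy. Gm16425, a processed pseudogene, is shown at chr8:19535617-19535736 (plus strand) and its parent Larp1, which encodes an RNA-binding protein that acts on the translation of ribosomal protein mRNAs, at chr11:58009406-58009525 (plus strand). Of 22 CpGs in the parent window 16 were still CpGs in the copy. Over the 13 CpGs covered in both, the mean level in siCon was 66.8% in the copy and 0.113% in the parent.
Gm16425: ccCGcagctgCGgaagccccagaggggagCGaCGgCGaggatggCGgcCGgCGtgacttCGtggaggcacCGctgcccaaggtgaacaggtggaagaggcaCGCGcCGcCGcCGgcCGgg
Larp1: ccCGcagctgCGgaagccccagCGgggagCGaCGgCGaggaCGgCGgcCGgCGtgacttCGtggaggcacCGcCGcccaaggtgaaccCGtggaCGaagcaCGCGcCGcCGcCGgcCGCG

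The second pair differs at 5 of 120 bases. Gm13034 is at chr4:146067754-146067873 (plus strand), and its parent Smarca5, the ATPase of ISWI chromatin remodelling complexes, at chr8:80738975-80739094 (minus strand). Over 17 shared covered CpGs the level was 80.03% in the copy and 7.17% in the parent in siCon, and 80.1% and 6.64% in siH19.
Gm13034: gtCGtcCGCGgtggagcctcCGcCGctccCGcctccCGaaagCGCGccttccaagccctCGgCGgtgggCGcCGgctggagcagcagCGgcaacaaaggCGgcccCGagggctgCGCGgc
Smarca5: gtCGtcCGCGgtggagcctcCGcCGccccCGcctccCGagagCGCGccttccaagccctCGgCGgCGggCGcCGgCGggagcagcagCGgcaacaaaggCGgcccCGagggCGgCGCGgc

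Gm11950 is shown at chr11:3629190-3629309 (plus strand), beside its parent Irf2bpl, which encodes a protein related to the interferon regulatory factor 2 binding proteins, at chr12:86882019-86882138 (minus strand). All 8 CpGs of the parent window were kept, and the level over 6 covered ones was 56.6% in the copy and 0.256% in the parent in siCon. Here no CpG of the parent lay within 2 kb of an annotated protein-coding start.
Gm11950: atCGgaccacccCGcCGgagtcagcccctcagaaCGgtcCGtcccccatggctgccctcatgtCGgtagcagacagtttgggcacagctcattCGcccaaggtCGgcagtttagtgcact
Irf2bpl: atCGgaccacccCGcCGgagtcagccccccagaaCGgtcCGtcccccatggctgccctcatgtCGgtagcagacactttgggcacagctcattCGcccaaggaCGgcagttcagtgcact

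A copy with low methylation is Gm5814, at chr17:47410389-47410508 (plus strand), whose parent Mrfap1 is at chr5:36796448-36796567 (minus strand). All 18 CpGs were kept, and the level over 17 of them was 12.7% in the copy and 0.398% in the parent in siCon.
Gm5814: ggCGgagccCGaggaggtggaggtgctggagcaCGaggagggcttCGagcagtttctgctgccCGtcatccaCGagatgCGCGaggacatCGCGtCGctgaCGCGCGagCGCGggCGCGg
Mrfap1: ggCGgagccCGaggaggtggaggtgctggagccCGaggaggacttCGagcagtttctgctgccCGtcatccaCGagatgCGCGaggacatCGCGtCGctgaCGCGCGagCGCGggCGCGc

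Among unprocessed pseudogenes, Gm15847 is at chr5:73014033-73014152 (plus strand), and its parent Zar1, which encodes a maternal factor of the oocyte, is on the same chromosome at chr5:72580426-72580545 (minus strand). Over 7 shared covered CpGs the level was 62.3% in the copy and 42.2% in the parent in siCon. Some parent CpGs of this window had only 7 reads in siCon. Over all 13 shared CpGs of the pair the order was the opposite, at 50.5% in the copy and 54.1% in the parent.
Gm15847: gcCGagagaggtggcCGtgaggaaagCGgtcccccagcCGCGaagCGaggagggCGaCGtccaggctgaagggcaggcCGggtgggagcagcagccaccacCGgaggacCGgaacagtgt
Zar1: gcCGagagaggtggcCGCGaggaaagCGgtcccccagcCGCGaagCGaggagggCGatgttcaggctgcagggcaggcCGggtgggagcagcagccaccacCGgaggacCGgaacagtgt

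Zfp422-ps, at chr17:33305373-33305492 (minus strand), differs at 1 of 120 bases from the zinc finger gene Zfp422, at chr6:116626662-116626781 (minus strand). Both copies were methylated, at 100% and 88.6% over 4 shared CpGs in siCon.
Zfp422-ps: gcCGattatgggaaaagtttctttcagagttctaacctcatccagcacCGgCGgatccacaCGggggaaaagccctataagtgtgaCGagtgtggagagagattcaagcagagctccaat
Zfp422: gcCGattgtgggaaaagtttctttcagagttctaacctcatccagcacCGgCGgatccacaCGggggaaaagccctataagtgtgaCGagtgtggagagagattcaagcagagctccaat

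The last pair, chosen after its values were seen, is one whose body level differed between the libraries. Gm9063 is at chr12:110320043-110320162 (minus strand), and Mrps26, which encodes a protein of the mitochondrial ribosome, at chr2:130563832-130563951 (plus strand). Over 6 shared covered CpGs the copy was at 76.3% in siCon and 59.9% in siH19, and the parent at 1.30% and 0.0%.
Gm9063: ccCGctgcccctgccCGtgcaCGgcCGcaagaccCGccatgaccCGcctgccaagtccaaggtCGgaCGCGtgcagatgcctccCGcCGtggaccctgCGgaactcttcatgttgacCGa
Mrps26: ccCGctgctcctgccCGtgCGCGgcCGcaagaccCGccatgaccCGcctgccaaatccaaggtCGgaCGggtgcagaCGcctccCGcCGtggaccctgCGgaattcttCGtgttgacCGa

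3 further windows show bodies at both ends of the scale, taken among those with at least 10 cytosines and 100 reads in each library. D630033A02Rik, the lowest processed body within these limits, is shown at chr10:122985414-122985533 (minus strand), H2-K2, an unprocessed member of the major histocompatibility complex, at chr17:33978234-33978353 (minus strand), and Gm5434, the highest processed body within the same limits, at chr12:36090394-36090513 (plus strand). In siCon the level over covered CpGs was 0.369% in the first window, 4.95% in the second and 100% in the third, over 19, 8 and 4 CpGs.
D630033A02Rik: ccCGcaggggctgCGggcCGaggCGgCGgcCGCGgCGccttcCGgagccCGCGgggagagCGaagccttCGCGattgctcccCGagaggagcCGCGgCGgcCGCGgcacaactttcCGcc
H2-K2: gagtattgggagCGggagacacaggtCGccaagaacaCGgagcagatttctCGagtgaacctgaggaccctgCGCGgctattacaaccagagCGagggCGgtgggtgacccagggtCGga
Gm5434: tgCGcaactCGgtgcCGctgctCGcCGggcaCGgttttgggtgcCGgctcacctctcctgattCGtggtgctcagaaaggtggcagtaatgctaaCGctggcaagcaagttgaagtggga

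Most pseudogenes had no covered cytosine. Of 8936 processed members 1999 (22.4%) had at least 1 and 823 (9.21%) at least 5, and of 1909 unprocessed members 368 (19.3%) and 191 (10.0%) did. The other 6937 processed and 1541 unprocessed members could not be measured here. Processed members with at least 5 cytosines had a median of 24 CpGs, a median length of 808 bp and a computed CpG island in 81.9% of bodies, whereas processed members without any had 6 CpGs, 511 bp and an island in 18.1%. Their match to the parent was also closer, with a median identity of 93.6% against 88.2%. Covered unprocessed members were long, with a median of 15981 bp against 1092 bp for those without coverage, and 81.2% against 5.97% of them held an island. The median observed to expected CpG ratio was 0.428 in covered processed bodies and 0.208 in covered unprocessed ones. The values below therefore describe short CpG-rich processed copies and long unprocessed bodies, most of which contain an island.

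Processed pseudogenes were methylated to a higher level than unprocessed ones in both libraries. Over 11936 cytosines of processed bodies the mean level, with each cytosine weighted equally, was 58.4% in siCon and 58.6% in siH19. Over 4059 cytosines of unprocessed bodies it was 43.9% in siCon and 44.3% in siH19. The difference, unprocessed minus processed, was -14.5 points in siCon and -14.3 points in siH19. Processed bodies were above unprocessed ones on 18 of 19 autosomes in each library. The exception was chromosome 18, where unprocessed bodies had 24 cytosines at 75.1% in siCon. Levels of the processed type ran from 49.9% to 70.1% over the autosomes in siCon. The types were compared over cytosines of the same libraries, without replicates, and 50 cytosines lay in bodies of both types.

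The size of the difference varied with the context that was matched. In exons alone processed bodies were at 58.9% and unprocessed bodies at 46.0% in siCon. Outside every other annotated gene they were at 56.4% and 43.7%. Outside CpG islands the levels were 48.9% and 39.1%, and inside islands 64.1% and 47.3%. Repeats marked by soft-masking made up 8.19% of the cytosines of processed bodies and 43.7% of those of unprocessed bodies. Outside soft-masked sequence the levels were 59.0% and 41.0%, and within it they were closer, at 51.5% and 47.5%. The types were also closer among bodies of low CpG ratio. Below an observed to expected ratio of 0.2 the median siCon level was 41.96% in 34 processed and 40.3% in 86 unprocessed bodies, and from 0.2 to 0.4 it was 51.2% in 311 and 44.2% in 87. Among bodies of 10 kb and over it was 48.1% in 37 processed and 44.2% in 123 unprocessed ones. These classes of CpG ratio hold most of the 191 unprocessed bodies.

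Pooled over bodies, island cytosines of pseudogenes were thus more methylated than their other cytosines. The pools differ in bodies, since not every body held an island. The median siCon level was 44.6% in the 149 processed bodies without an island and 68.9% in the 674 with one. Islands were not compared with the rest of the same body. In processed bodies, 7467 island cytosines were at 64.1% and 4469 others at 48.9% in siCon. Over all autosomal cytosines the order was the opposite, with 23.7% inside islands and 51.5% outside, and for cytosines over 2 kb from a protein-coding start the values were close, at 53.3% and 52.4%. Island cytosines in lncRNA bodies over 2 kb from a start were at 36.3%, those between genes at 46.8%, and those in protein-coding exons at 66.1%. The level of processed islands thus lay near that of protein-coding exon islands, and the level of unprocessed islands near that of intergenic islands. Without regard to islands, protein-coding exons over 2 kb from a start were at 67.4%, introns at 57.1%, lncRNA bodies at 42.0% and intergenic sequence at 44.5% in siCon.

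Single bodies spanned the whole range of methylation. Over the 823 processed bodies with at least 5 cytosines, the siCon level ran from 0% to 100% with a median of 64.2% and quartiles at 40.7% and 81.6%. Over the 191 unprocessed bodies it ran from 0.265% to 98.4% with a median of 42.6% and quartiles at 29.8% and 61.4%. Among processed bodies 229 (27.8%) were at 80% or above and 100 (12.2%) below 20%. Among unprocessed bodies 13 (6.81%) were at 80% or above and 27 (14.1%) below 20%. The share of highly methylated bodies was thus larger in the processed type, and the shares below 20% lay close together. The siH19 library gave 239 and 97 processed and 13 and 30 unprocessed bodies in the same classes. Of the bodies below 20%, 88 processed and 24 unprocessed ones were so in both libraries.

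**Figure D1:**
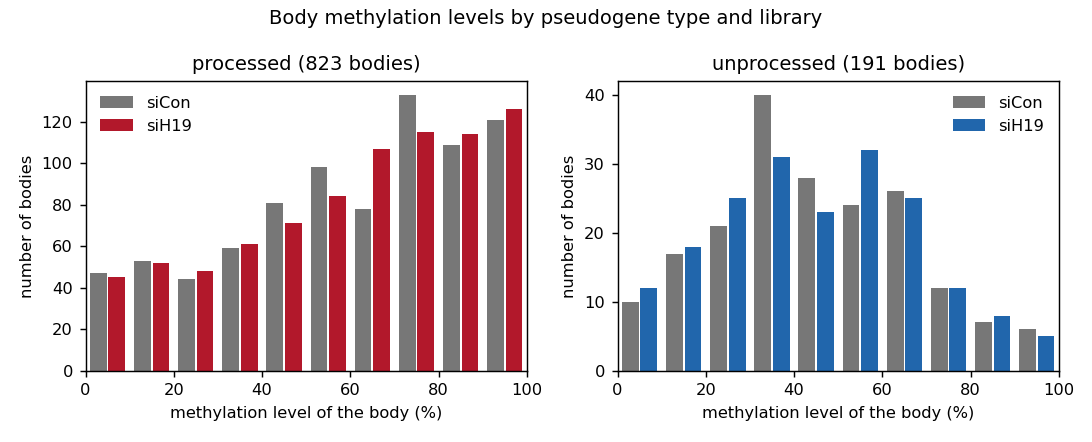
Number of pseudogene bodies (vertical axis) by mean methylation level in percent (horizontal axis, steps of 10), for 823 processed bodies on the left and 191 unprocessed bodies on the right; grey bars are siCon and coloured bars siH19, with 1 library each. Processed bodies pile up toward high levels, with 229 at 80% or above in siCon, and unprocessed bodies lie mostly between 20% and 80%, with 151 of 191 there.

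The lowest processed body with at least 10 cytosines and 100 reads in each library was D630033A02Rik, a transcribed processed pseudogene at chr10:122985074-122986555. Its 131 cytosines, the most of any processed member, averaged 0.322% in siCon and 0.583% in siH19. The share of methylated reads was 0.354% of 5082 reads in siCon (95% Wilson interval 0.224% to 0.559%) and 0.579% of 6394 reads in siH19 (0.420% to 0.797%). Here and below, the reads of a body are summed over its cytosines, so a read covering several cytosines was counted at each. The intervals take these counts as independent and can therefore be too narrow. The next lowest were Magef1, a transcribed member of the MAGE family, at 0.504% in siCon and 0.764% in siH19, and Gm13836, at 0.599% and 0.627%. Gm8712, a copy of Snf8, which encodes a subunit of the ESCRT sorting machinery, was at 2.27% and 4.06%. The library that was not used to choose them gave levels under 5% for all 4.

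Within the same limits of 10 cytosines and 100 reads, the highest processed bodies were Gm5434, a copy of the NEDD8-conjugating enzyme gene Ube2f, at 99.0% in siCon and 99.0% in siH19, and Gm16288, a copy of Rps25, at 98.8% and 98.9%. Nearest to 50% were Rps2-ps10, at 50.3% in siCon and 59.8% in siH19, and Gm11452, a copy of the transcriptional adaptor gene Tada3, at 50.5% and 47.5%. Among unprocessed bodies within these limits the lowest were Gm20257, a partial copy of the apoptosis gene Casp8, at 0.265% in siCon and 0.206% in siH19, and Gm19196, a copy of Taf1b, at 1.32% and 1.00%. H2-K2, a class I histocompatibility pseudogene, was at 5.37% and 4.78%, and Gm11427, a copy of the Schlafen gene Slfn4, at 6.47% and 9.54%. The highest unprocessed bodies within them were Zfp422-ps at 98.4% in siCon and 96.5% in siH19 and Gm2420, a copy of the centrosomal gene Sfi1, at 94.3% and 90.7%. Gm49461 was at 49.9% and 48.5%, and Gm15847 at 49.7% and 52.4%.

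All 4 processed and all 4 unprocessed bodies named as lowest held a computed CpG island. Over all covered processed bodies, an island was present in 57 of 88 bodies (64.8%) that were below 20% in both libraries and in 617 of 735 others (83.9%). Transcribed forms made up 8 of the 88 (9.09%) and 67 of the 735 (9.12%). Only 7 of the 88 (7.95%) lay inside a protein-coding gene, against 165 of 735 (22.4%). A start of a lncRNA lay within 1 kb of 1 of the 88 and of 19 of the 735.

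After D630033A02Rik, the processed bodies with the most covered cytosines were Gm11620 and Gm19430, both copies of Cactin, which encodes a splicing factor. Gm11620, with 80 cytosines, was at 92.6% in siCon and 92.0% in siH19, and Gm19430, with 56, at 71.9% and 73.8%. Among unprocessed bodies Gm16505 had 185 cytosines at 22.2% in siCon and 22.6% in siH19. Gm49329, a transcribed body of 164877 bp, had 154 cytosines at 34.5% and 37.2%, and Zfp125, which had the next most, was at 63.9% and 64.4%.

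Levels within the processed type went with the position and the sequence of the copy. In the 172 processed bodies inside a protein-coding gene the median siCon level was 79.0%, and 47.1% of them were at 80% or above. In the 651 others the median was 58.9% and 22.7% were at 80% or above. Bodies within 5 to 20 kb of a protein-coding start had a median of 71.4%, and the 214 bodies over 100 kb from one a median of 51.4%. By observed to expected CpG ratio, the median was 42.0% below 0.2, 51.2% from 0.2 to 0.4 and 72.7% from 0.4 to 0.6. Above this it changed little, at 74.3% from 0.6 to 0.8 and 72.3% in the 30 bodies at 0.8 and over. Of those 30 bodies 23.3% were below 20%, against 7.81% of the bodies from 0.4 to 0.6. By identity to the parent the median was 55.2% in copies at 70 to 85% and 72.9% in the 127 copies at 98% or above. Unprocessed bodies showed no such order by identity, with medians of 40.4%, 34.4%, 45.8%, 38.2% and 47.8% from the lowest to the highest class. These features are linked with one another and with coverage, and their separate parts in the levels were not tested. Transcribed processed bodies had a median of 57.4% and the others 65.6%. For unprocessed bodies the medians were 41.4% and 43.2%.

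Across the body, the processed type was highest at the 5′ end. The mean siCon level was 62.1% in the first of 5 equal segments, 58.0% in the second, 55.5% in the third, 54.7% in the fourth and 57.4% in the last. In the 500 bp before the body it was 59.5%, and in the flanking steps farthest from the body it was 49.1% upstream and 45.5% downstream. Islands held 77.4% of the cytosines of the first segment and 49.2% of those of the last, and their part in this profile was not tested. Unprocessed bodies were at 39.99% in the first segment and at 44.2% to 46.7% in the others. For 204 processed bodies with at least 5 cytosines in the body and in the 2 kb flanks, the body exceeded its flanks by 2.62 ± 25.4 points in siCon (SD over genes), and 109 bodies were higher and 95 lower. For 34 unprocessed bodies it exceeded them by 10.5 ± 25.7 points, with 18 higher and 16 lower. With flanks of 5 kb the values were 5.61 points over 324 processed bodies and 3.33 points over 66 unprocessed ones.

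**Figure D2:**
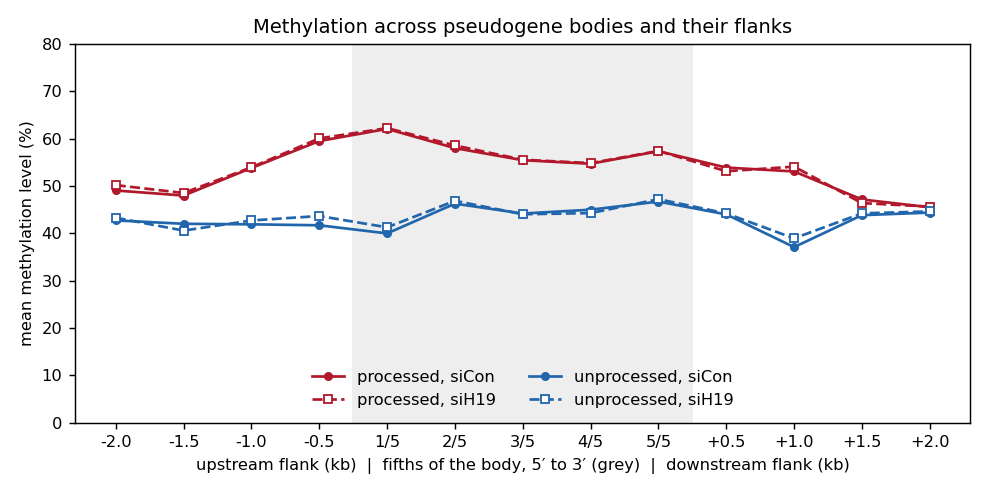
Mean methylation level in percent (vertical axis) across pseudogene bodies, divided into 5 equal segments from 5′ to 3′ (grey area), and in 500 bp steps of the flanks; filled circles with solid lines are siCon and open squares with dashed lines siH19, 1 library each, with cytosines weighted equally. Processed bodies (red) start at 62.1% in siCon in the first segment and unprocessed bodies (blue) at 39.99%.

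Families of pseudogenes were followed by the symbol they carry. Of 258 processed members named after ribosomal proteins (Rpl, Rps, Rplp), 38 had at least 5 cytosines, with a median of 73.7% in siCon and 77.4% in siH19 and a range from 0% to 98.3% in siCon. Of these 16 were higher and 22 lower in siH19, and none was called by the test given below, while 1.58% of processed bodies were. Rps4l was at 86.3% and 84.7% and Rps2-ps7 at 96.0% and 92.9%. When all processed members whose best match was a ribosomal protein gene were taken, a list added after the values were seen, 201 of 2087 had at least 5 cytosines, their median was 74.2% and 1 was called. Of the glycolysis copies, Pgam1-ps1 was at 81.6% and 81.9% and Ldha-ps2 at 11.8% and 4.88%. H2afy3, a copy of a macroH2A gene, was at 93.1% and 91.5%, and the unprocessed Hmgb1-rs17 at 67.0% and 57.9%. Of the cytoskeletal copies Actg-ps1 was at 70.9% and 74.6% and Tubb2a-ps2 at 2.73% and 1.43%. Krt8-ps, from a keratin gene, was at 42.7% and 43.2%.

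Families made up mostly of unprocessed members, and the zinc finger pseudogenes, with 8 processed and 6 unprocessed members, were followed in the same way. Olfactory and vomeronasal receptor pseudogenes, the largest of the families followed, with 413 unprocessed members, had 15 with at least 5 cytosines, at a median of 41.1% in siCon and 43.6% in siH19 and between 12.7% and 74.3% in siCon. Vmn2r-ps133 was at 59.9% and 63.8% and Olfr1372-ps1 at 35.9% and 36.9%. Of 26 cytochrome P450 and UDP-glucuronosyltransferase pseudogenes 6 were covered, at a median of 30.9% in siCon, with Cyp2j15-ps at 30.8% and 30.0% and Cyp4a30-ps at 44.2% and 51.2%. Of 7 histocompatibility pseudogenes 3 were covered, at a median of 13.8%, with H2-M6-ps at 66.0% and 63.6%. Serpina3h was at 13.8% and 13.5%. Of 6 unprocessed zinc finger pseudogenes 4 were covered, between 13.6% and 98.4%, with Zfp939 at 13.6% and 13.3%. The processed Zfp42-ps1 was at 71.5% and 71.2%. None of the members matched by symbol in these families was called, where 1.05% of unprocessed bodies and 0.28% of all bodies were.

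For 8172 processed and 1688 unprocessed members a protein-coding transcript from another place matched over at least 100 bases at 70% identity or more, and the best match was taken as the parent. Such a match is not a curated parent, and some may not be the true source. The best match of Magef1, for example, was Olfr912, over 6.60% of the Magef1 transcript. CpGs present in both copies and covered in both were then compared. Over 1812 such CpGs in 608 processed pseudogenes and 391 parents, the copy was at 64.0% and the parent at 34.1% in siCon, and at 64.4% and 34.3% in siH19. The copy was thus 29.9 points higher in siCon and 30.1 in siH19. Over 136 CpGs in 37 unprocessed pseudogenes the copy was at 41.7% and the parent at 41.2% in siCon, a difference of 0.555 points, and at 41.6% and 41.7% in siH19.

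The sign of the processed difference went with the place of the parent CpG. Over 1367 CpGs whose parent position was within 2 kb of a protein-coding start, the processed copies were at 66.4% and the parents at 18.9% in siCon. Over 445 CpGs with the parent position farther away, the copies were at 56.8% and the parents at 80.9%, a difference of -24.2 points, copy minus parent. The unprocessed type showed the same signs, with 39.5% and 27.7% over 92 CpGs near a start and 46.5% and 69.4% over 44 CpGs away from one. The level of a processed copy hardly went with that of its parent. It was 65.0% where the parent was below 20%, 58.6% where the parent was between 20% and 80%, and 64.2% where the parent was above 80%. For unprocessed copies the same values were 27.2%, 42.3% and 65.8%, over 58, 44 and 34 CpGs.

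Counted by gene, 251 processed pseudogenes from 172 parents had at least 3 shared CpGs. The copy was at least 20 points above the parent in 148 of them in siCon and in 145 in siH19, with 145 so in both. It was at least 20 points below in 32 and in 29, with 27 so in both. Of 18 unprocessed copies, 4 were at least 20 points above and 5 below in siCon. Copies of 1 parent differed widely. The 22 covered copies of Rps2 ran from 41.2% to 97.7% in siCon, the 12 of Rpl36 from 19.3% to 97.8%, and the 11 of Rpl29 from 4.14% to 98.04%. The 7 copies of Rps7 had a median of 18.1% in siCon and 10.9% in siH19, the lowest among the 12 parents with at least 6 covered copies. Reads of near-identical copies are uncertain. Of all members, covered or not, 853 processed and 165 unprocessed ones matched their parent at 98% or more. Among bodies with at least 5 cytosines 127 processed and 14 unprocessed ones did. The part of misplaced reads in these values was not tested.

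The pairs with the most shared CpGs were Gm16425 and Larp1, with 24, at 59.5% in the copy and 18.3% in the parent in siCon and 53.5% and 18.96% in siH19. For Gm13034 and Smarca5, with 18, the values were 79.8% and 6.77% in siCon and 80.1% and 6.27% in siH19. 4 pairs had 17. Gm11950 was at 63.4% against 0.498% for Irf2bpl, and Gm6190 at 69.3% against 0.516% for Cables2, which encodes a cyclin-dependent kinase adaptor. Gm12241 was at 80.4% against 25.9% for the zinc finger factor gene Zic5, and Gm5814 at 12.7% against 0.398% for Mrfap1. In all 6 the copy was higher in both libraries. Among unprocessed pairs, Gm15847 was at 50.5% and Zar1 at 54.1% in siCon over 13 CpGs, and Zfp422-ps at 98.7% and Zfp422 at 94.3% over 11. Gm49326 was at 36.99% and its parent Asap2 at 36.9% over 9. These 3 unprocessed copies were within 5 points of their parents in siCon, but in siH19 Gm49326 was at 27.4% and Asap2 at 42.3%.

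**Figure D3:**
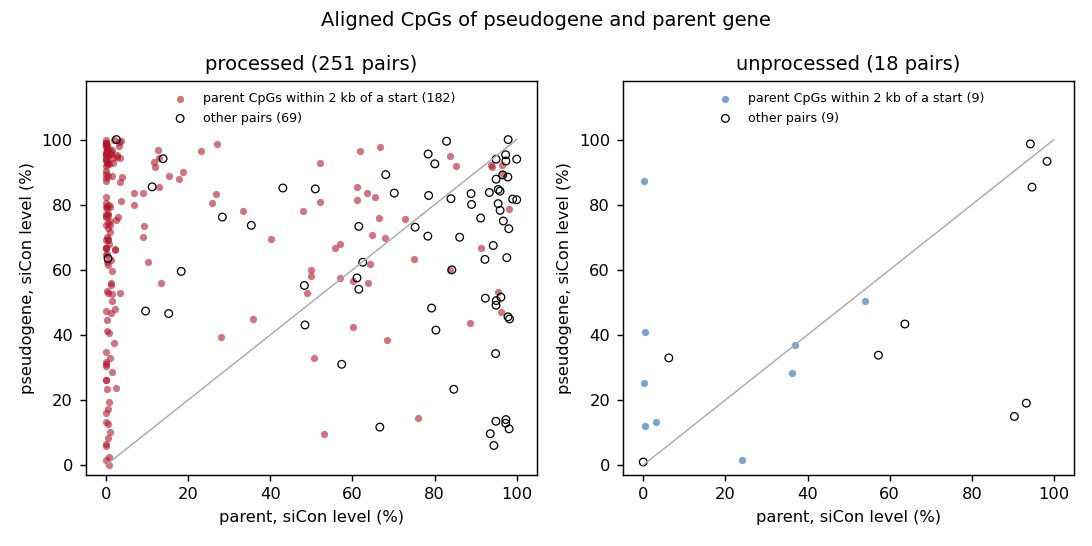
Mean level in percent of a pseudogene (vertical axis) against that of its parent gene (horizontal axis) over CpGs shared and covered in both, in siCon, for 251 processed and 18 unprocessed pairs with at least 3 shared CpGs; filled points have all parent CpGs within 2 kb of a protein-coding start, open points are other pairs and the line marks equal levels. Most filled processed points stand at a parent level near 0% over the whole range of copy levels, and 148 of the 251 processed copies are at least 20 points above their parents.

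The aligned bases gave a further readout of the same copies, which comes from the genome sequence and not from the reads. Of 139831 CpGs of parents aligned to processed pseudogenes, 42.5% were still CpGs and 41.4% were TpG or CpA. Of 320604 GpC dinucleotides, which hold the same bases in the other order, 78.6% were kept and 12.5% were GpT or ApC. Unprocessed copies had kept 44.3% of 15015 CpGs and 79.3% of 62456 GpCs. In processed copies at 85 to 90% identity 30.2% of CpGs and 76.2% of GpCs were kept, and at 98% or above 92.2% and 97.9%. Identity itself counts the lost CpGs. Copies that were highly methylated in the myotubes had not lost more CpGs than the others. Among processed copies at 85 to 95% identity, 60.1% of CpGs were kept in 98 bodies at 80% or above, 54.2% in 214 bodies between 20% and 80%, and 49.9% in 51 bodies below 20%. The GpC shares kept had the same order, at 86.4%, 83.7% and 81.6%, so the order was not particular to CpGs. Over all identities the CpG shares were 71.0%, 62.4% and 52.4% in the same order, and the GpC shares 89.65%, 86.2% and 81.99%. The CpG share was 38.4% in processed members with fewer than 5 covered cytosines, which include bodies with too few CpGs left to be read.

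**Figure D4:**
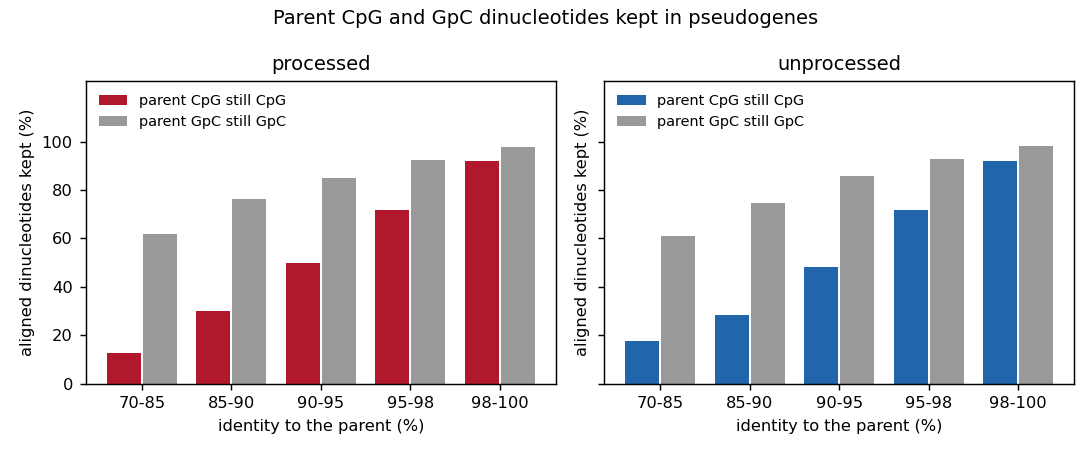
Share in percent of parent CpG (coloured bars) and GpC (grey bars) dinucleotides that are still the same dinucleotide in the aligned pseudogene (vertical axis), by identity of the copy to its parent (horizontal axis), for processed copies on the left and unprocessed copies on the right. In each class of identity fewer CpGs than GpCs were kept, with 12.7% against 61.7% in the lowest processed class.

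Between the libraries the levels of pseudogene bodies were close. The mean difference, siH19 minus siCon, was 0.220 points over the cytosines of processed bodies and 0.454 points over those of unprocessed bodies. It was 0.213 points over all autosomal cytosines and 0.299 points over intergenic cytosines more than 2 kb from a start. Weighted by reads, the processed difference was 1.95 points and the unprocessed one 0.306. With the same weighting it was -0.501 points over all autosomal cytosines and 0.923 points over intergenic cytosines more than 2 kb from a start. Per body, the median difference was 0.260 points for processed members, with quartiles at -2.43 and 3.06, and 0.2501 points for unprocessed members, with quartiles at -1.996 and 3.04. In siH19, 435 processed bodies had a higher level and 387 a lower one, while 99 unprocessed bodies were higher and 92 lower. Within a library, the plus and minus strands of the same CpGs gave a median absolute difference per body of 4.36 points in siCon and 3.801 in siH19 for 634 processed bodies, and the libraries differed by 2.58 points over the same CpGs. Each strand holds only part of the reads that enter the library difference, so these values are not a like measure of error. For 146 unprocessed bodies the strands differed by 4.92 and 4.90 points and the libraries by 2.33.

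A Mantel-Haenszel test on reads, with cytosines as strata and Benjamini-Hochberg adjustment over all 22540 autosomal gene bodies with at least 5 cytosines, called a body where the adjusted p was under 0.05 and the levels differed by at least 10 points. The test takes cytosines as independent, but neighbouring cytosines can share reads, so its p-values can be too small. Its unadjusted p was under 0.05 for 16.6% of all bodies, and the part of shared reads in this was not tested. The test called 0.28% of all bodies, 0.164% higher and 0.115% lower in siH19. Of the pseudogene bodies it called 13 of 823 processed (1.58%) and 2 of 191 unprocessed (1.05%), 8 higher and 7 lower. Called bodies were small in coverage. With 5 to 9 cytosines, 12 of 517 pseudogene bodies (2.32%) and 13 of 2474 other bodies (0.525%) were called, and with 10 to 29 cytosines 3 of 441 (0.680%) and 27 of 5382 (0.502%). At 30 or more, none of 56 pseudogene bodies was called, and 8 of 13670 other bodies (0.0585%) were, while the unadjusted p was under 0.05 for 5 (8.93%) and for 19.4% of the others. Without the minimum of 10 points, 27 pseudogene bodies (2.66%) passed the adjusted threshold, against 3.35% of all bodies. Rps2-ps10, named above, passed the adjusted threshold with a difference of 9.51 points and was therefore not called.

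All 8 called higher in siH19 were processed, as were 823 of the 1014 pseudogene bodies tested. The 5 with the largest difference were AC122253.3, Gm7901, Tmem229b-ps, Gm20763 and Gm9172. AC122253.3, a copy of the glutathione peroxidase gene Gpx4, was at 77.9% in siCon and 95.5% in siH19 over 8 cytosines. Gm7901, a copy of Phgdh, which encodes the first enzyme of serine synthesis, rose from 34.9% to 52.1% over 5 cytosines. Tmem229b-ps rose from 57.9% to 74.5% over 8 cytosines. Its share of methylated reads was 56.4% of 110 reads in siCon (95% Wilson interval 47.0% to 65.3%) and 74.5% of 165 reads in siH19 (67.4% to 80.6%). Gm20763, a copy of the kinesin gene Kifc1, rose from 14.4% to 28.0%, and Gm9172, a copy of the transcription factor gene Gtf2b, from 51.1% to 64.3%. The other 3, named after their values were seen, were Gm18669 (79.8% to 92.0%), Gm12397 (66.7% to 78.6%) and AC158774.1 (82.6% to 92.8%).

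Of the 7 called lower, 5 were processed. AC102437.1, partly a copy of the dyskerin gene Dkc1, was at 90.7% in siCon and 66.8% in siH19 over 8 cytosines. Gm8670, a copy of Twistnb, which encodes a subunit of RNA polymerase I, fell from 47.2% to 31.5% over 10. Its share of methylated reads was 47.4% of 209 reads in siCon (40.7% to 54.1%) and 31.1% of 225 reads in siH19 (25.4% to 37.4%). Gm6434, a copy of the mitochondrial ribosomal gene Mrpl41, fell from 34.4% to 19.1%. Gm9063, the copy of Mrps26 shown above, had the most cytosines of any called body, with 26, and fell from 66.3% to 55.8%. Gm6433, a copy of Rps2, fell from 69.4% to 59.3%. The unprocessed AC115715.1, a copy of the organic anion transporter gene Slc22a26, was at 38.6% and 9.57% over 7 cytosines, with 70 and 84 reads summed over them. Gm47019, which had no parent match, was at 38.5% and 19.03%. Gm8670 and Tmem229b-ps were called also with reads summed over the body, with at least 10 reads per cytosine and with restriction-site cytosines kept, and the other 13 were each lost under at least 1 of these.

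**Figure D5:**
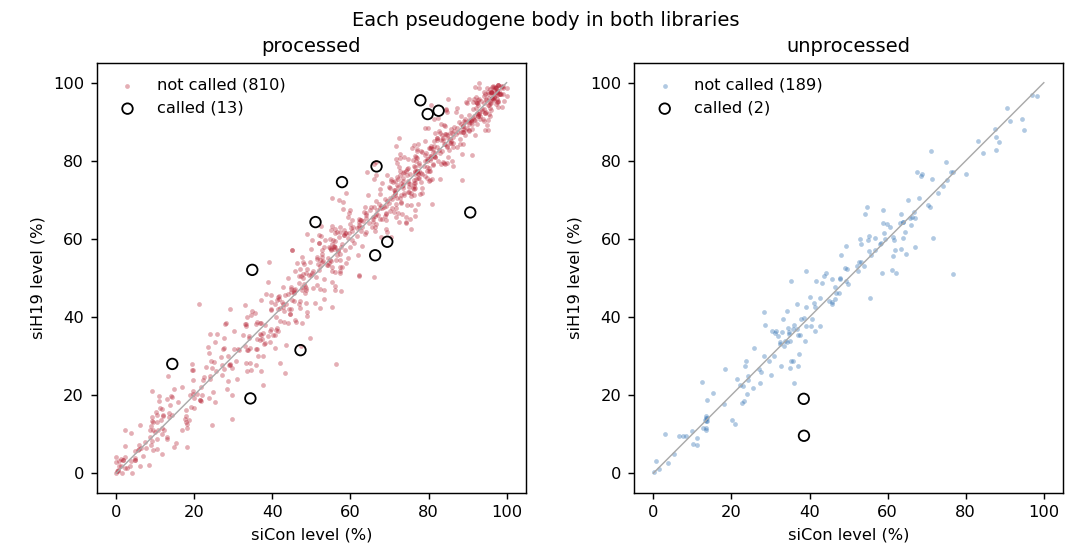
Mean level in percent of each body with at least 5 cytosines in siH19 (vertical axis) against siCon (horizontal axis), 1 library each, for 823 processed and 191 unprocessed bodies; open black circles are the 13 and 2 called bodies and the line marks equal levels. Most points lie along the line, with Pearson's r across bodies of 0.981 for processed and 0.967 for unprocessed bodies, which share the 2 libraries.

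At single cytosines, Fisher's exact test with adjustment over all 1795680 autosomal cytosines called 0.00629% of them, and 3 of the 15945 in pseudogene bodies, all in processed bodies and all higher in siH19, and named here after their values were seen. In Gm5712, position 129434513 of chromosome 3 on the plus strand had 0 of 18 reads methylated in siCon and 34 of 54 in siH19 (Fisher's exact test, adjusted p = 0.0253), while the other strand of the same CpG was at 57.1% and 70.6%. In Gm17082, position 122121598 of chromosome 14 had 0 of 10 reads and 34 of 38 (Fisher's exact test, adjusted p = 0.0102), and its other strand was at 100% and 60.0%, the opposite direction. The third cytosine, in AC158774.1, was at 46.7% of 30 reads and 100% of 38, and its other strand at 50% and 80.95%. By the looser rule of an unadjusted p under 0.05 and a difference of at least 33 points, 0.956% of all autosomal cytosines were called. In processed bodies 169 of 11936 (1.42%) were, 92 higher and 77 lower, and in unprocessed bodies 65 of 4059 (1.60%), 31 higher and 34 lower. They lay in 146 processed and 49 unprocessed members, of which 16 and 12 held 2 or more.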

How the data were processed

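Reduced representation bisulfite sequencing was carried out on 1 siCon and 1 siH19 library of C3H myotubes, with DNA cut by MspI and TaqI. The deposited files give, per CpG cytosine and strand, a text field in which the authors set the number of methylated reads over all reads, with their percent, together with a deposited score that equals the methylated fraction in thousandths and was used only to check the counts. The authors aligned reads with Bismark in non-directional mode within the service provider's pipeline and trimmed the filled-in nucleotides; removal of duplicate reads is not given in the sources used here. The submitters' processing notes name bcl2fastq 1.8.4 and mm10. All 10261561 autosomal positions fell on a CpG cytosine of GRCm38.

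The files held 5453019 (siCon) and 5266846 (siH19) cytosines, with 104999613 and 106372792 reads summed over cytosines. Genes were taken from GENCODE release 21 for mouse, CpG islands were computed over windows of 200 bp (GC at least 50%, observed to expected CpG at least 0.6), and parents were found with blastn 2.17.0. Statistics were computed with Python 3.11.15, NumPy 2.4.6, pandas 2.3.3, SciPy 1.17.1 and numba 0.67.0, and plots with matplotlib 3.10.9. Gene bodies were tested with the Mantel-Haenszel chi-square test, which is asymptotic, takes cytosines as independent and compares reads of 2 libraries. Single cytosines were tested with Fisher's two-sided exact test, and both tests had Benjamini-Hochberg adjustment over all features. The procedures were tested on simulated data in which reads were drawn independently at each cytosine. The simulation therefore cannot show how the tests behave where cytosines share reads. Wilson 95% intervals cover counting error only, since each group had 1 library. Use of molecular identifiers is not given in the sources used here, so duplicate reads may have been counted as separate reads. The intervals and the counting errors of the alternatives take each read at each cytosine as independent, so they can be too small.

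Members and lists were chosen with earlier results of these data known. Within each type the text names, among bodies with at least 10 cytosines and 100 reads per library, the 4 lowest, 2 nearest to 50% and 2 highest in siCon; called bodies, up to 5 per direction; the 3 with the most cytosines; up to 2 per symbol family; and the 3 with the most CpGs shared with the parent, ties included. Exceptions are stated. Alternatives covered weighting, islands, reads, restriction sites, flank width, parent matches and the call rule.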

Additional observations from a re-analysis of the deposited data

How the results depend on the processing

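The difference between the types, unprocessed minus processed, kept its sign under each of 9 alternatives per library and moved by more than counting error, and the cause was not tested. Given as siCon and siH19 in points, it was -13.1 and -14.7 weighted by reads, -9.79 and -9.92 without CpG islands, -13.6 and -13.4 with the distance to a start taken per cytosine, -15.0 and -15.1 with equal weight per gene, -13.7 and -13.9 without transcribed forms, -15.3 and -14.9 with at least 10 reads, and -9.96 and -9.98 with restriction-site cytosines kept. In exons alone it was -12.9 and -12.6, and outside every other gene -12.8 and -12.8. The library difference of processed bodies was 1.95 points weighted by reads and 0.529 with restriction sites kept. The body-to-flank difference was 5.61 points for processed bodies with flanks of 5 kb and 3.29 in the siH19 library, and for unprocessed bodies 3.33 with flanks of 5 kb and 12.2 with at least 10 reads. The parent difference of processed copies was 31.1 points at an identity of at least 85% and reversed to -24.2 over parent CpGs more than 2 kb from a start. That of unprocessed copies was -1.14, 2.55 with a match over at least 50% of the transcript, -22.8 over parent CpGs more than 2 kb from a start and 5.19 with at least 10 reads, the first of these at an identity of at least 85%, so it has no stable sign. Called bodies numbered 76 with Fisher's test on summed reads (12 shared with the 15 reported), 27 without a minimum difference and 3 with at least 10 cytosines. As shares these were 7.50%, 2.66% and 0.604% of pseudogene bodies against 8.42%, 3.35% and 0.199% of all bodies, so the larger share among pseudogenes (1.48% against 0.28%) was not present in the first and second of these. With restriction sites kept there were 13, of which 3 were shared. Called single cytosines numbered 1 with strands summed, 5 with at least 10 reads and 65 with restriction sites kept, or 0.0101%, 0.0429% and 0.209% of pseudogene cytosines against 0.0103%, 0.00869% and 0.241% of all. The larger share reported (0.0188% against 0.00629%) was thus absent with strands summed and with restriction sites kept. The alternatives for exons, other genes, transcript share, parent position and 10 cytosines were chosen after seeing the data. Of 54 alternatives 18 moved a value by less than its counting error or a count by less than 1.5 times. No paired analysis was possible because each group had 1 library. Single bodies rested on few reads, with a median of 212.5 in siCon and 206 in siH19, summed over the cytosines of a body.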
